A study of Homo sapiens with 14 samples.

Results

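The ETS family is a group of transcription factors that share the ETS DNA-binding domain, which recognizes a core of GGA bases. Family members divide the work of blood formation: some set up stem cells and early lymphoid progenitors, some activate genes in response to MAP kinase signals, and several are broken or fused in leukemia. In precursor B cells they act beside RUNX1, PAX5 and IRF factors at enhancers of lymphoid genes. The 10 genes described here are ETS1, ETS2, ERG, FLI1, ELF1, ELF2, ELK4, GABPA, SPI1 and ETV6, family members with known roles in blood cells. They were found as the probe sets annotated with exactly 1 gene, that gene being one of the 10, which gave 19 of the 22277 probe sets on the array (10 of the 11963 genes that such probe sets measure).

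Transcripts were measured in RS4;11, a human cell line of B-precursor acute lymphoblastic leukemia that carries a KMT2A (MLL) rearrangement, on 4 arrays of untreated cells, 5 arrays after 8 h and 5 arrays after 24 h of the glucocorticoid dexamethasone (dex) at 10 nM. All cells, untreated ones included, had been kept for 2 days in serum stripped of steroids, and dex was added in ethanol. No untreated array was matched to a treatment time, so dex and time in culture cannot be told apart, and nothing states whether arrays of a group came from separate cultures, so p-values measure only the spread between these arrays of 1 line. The sample labels give a date and a letter for each array, read here as day and run. What the date refers to is not stated. Read so, the arrays fall in 5 runs on 4 days, with runs 1 and 2 on the same day. No untreated array is in run 5. Values are given below in run order (runs 1 to 4 for untreated cells, runs 1 to 5 for both dex times).

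The deposited values are log2 expression after RMA (background correction, quantile normalization and summary per probe set), so a difference of 1 is a 2-fold difference. Levels of different probe sets were compared only roughly, to place markers against the median of all genes and to mark dim probe sets. Array medians lay between 6.03 and 6.11. The labelled cell type was checked against marker genes: 7 of 8 measured precursor B genes and 4 of 4 measured genes of KMT2A-rearranged leukemia lay above the median of all genes in every group. None of 8 monocyte and granulocyte markers (0 of 8) and none of 6 fibroblast and endothelial markers (0 of 6) did so, with CD14 at 3.96, 3.84 and 3.86 in untreated, 8 h and 24 h cells. Of the T and NK cell markers 1 of 8 did (NKG7), and of the erythroid and platelet markers 1 of 5 did at 8 h and 24 h (GP9, at 6.18, 7.01 and 7.51 in untreated, 8 h and 24 h cells), whose part in the results was not tested. A large share of all genes differed between the groups. The variance filter kept single-gene probe sets whose interquartile range over the arrays was above its 0.5 quantile, and their mean per gene is called the gene value. Of the 6763 genes left, 34.5% passed limma at an adjusted p below 0.05 at 8 h against untreated cells, 63.4% at 24 h against untreated cells and 47.9% at 24 h against 8 h.

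Of the 10 members, 8 had a gene value, since SPI1 and GABPA did not pass the variance filter. At 8 h 6 of the 8 were called (34.5% of all genes), 5 higher and 1 lower (15.9% and 18.6% of all genes). ETS2, ETS1, FLI1, ERG and ELF1 were higher and ELK4 was lower, while ETV6 and ELF2 were not called. At 24 h 5 of the 8 were called (63.4% of all genes), 4 higher (ETS2, ERG, ELF1 and FLI1) and 1 lower (ELK4), beside 30.7% and 32.8% of all genes. Between 24 h and 8 h 2 of the 8 were called (47.9% of all genes), ETS2 higher and ETS1 lower (24.3% and 23.6% of all genes). The filter keeps genes that vary between arrays, so the same was counted over all 19 probe sets with no filter: 8 were higher and 1 lower at 8 h (16.9% of the 19070 single-gene probe sets were called), 8 were higher and 2 lower at 24 h (37.1%), and 2 were higher and 0 lower at 24 h against 8 h (24.9%). Of all single-gene probe sets 7.75% were called higher and 9.13% lower at 8 h, 18.5% and 18.6% at 24 h, and 13.3% and 11.7% at 24 h against 8 h. The median log2 fold change of the members' gene values was 0.30 at 8 h and 0.22 at 24 h, against −0.03 and −0.04 over all genes. In a bulk sample, fewer cells of a type and less RNA per cell cannot be told apart.

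**Figure D1:**
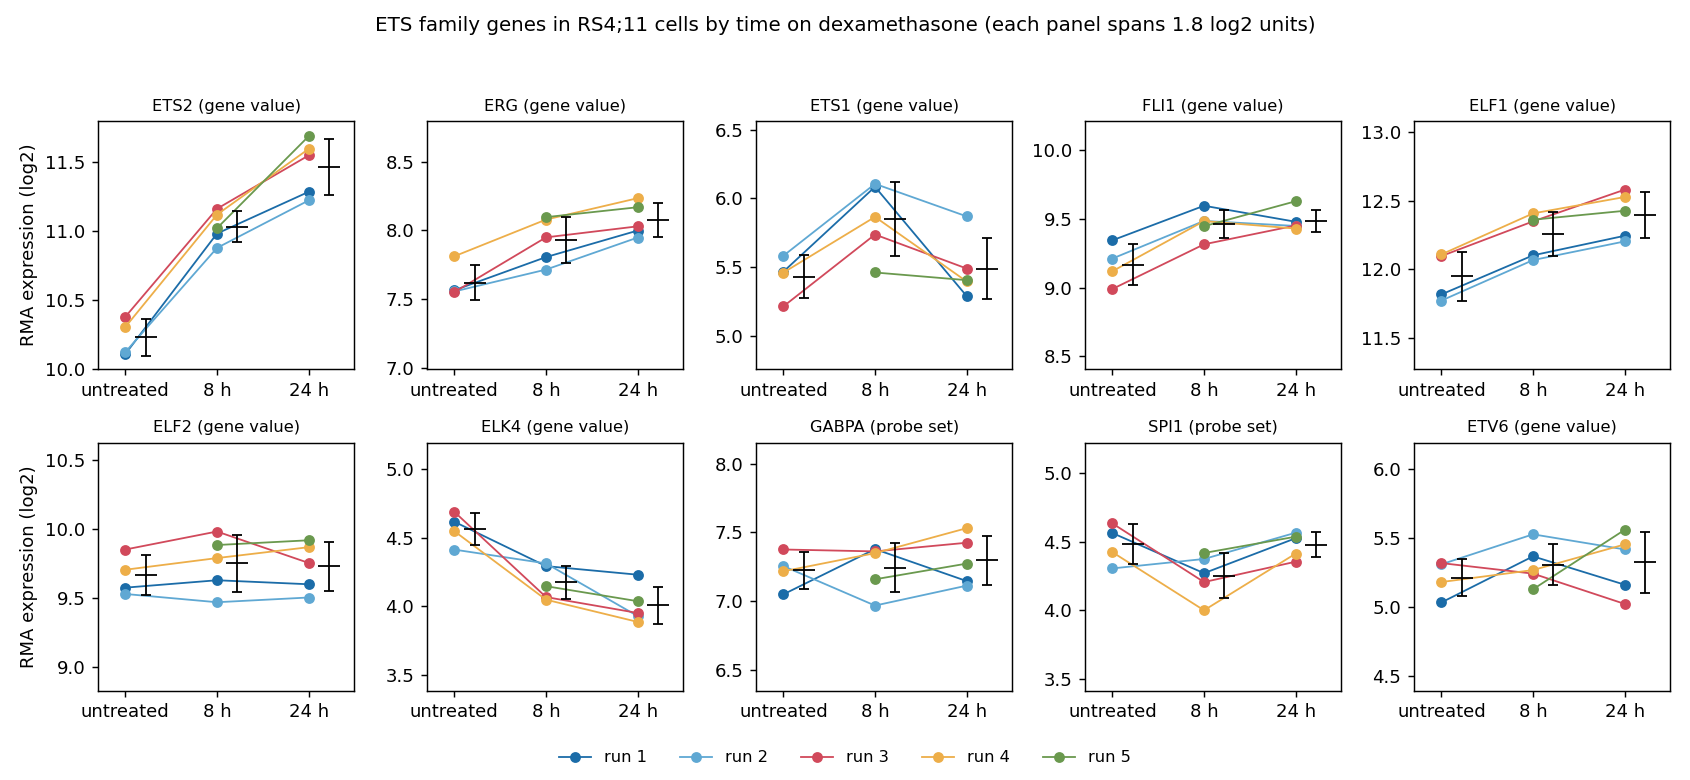
Expression (log2, RMA) of the 10 ETS genes on each array against time on dex; points are arrays, lines join arrays of a run, and black bars are the group mean ± SD, drawn to the right of the points. ETS2 climbs from untreated through 8 h to 24 h in the 4 runs that hold an untreated array, and from 8 h to 24 h in run 5, with group means of 10.23, 11.03 and 11.47, and ETS1 peaks at 8 h, with means of 5.43, 5.85 and 5.49.

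Promoter windows are shown for 4 members. ETS2 and ELF1 were higher, the called probe set of ELK4 was lower, and GABPA was not called at any time. The windows come from RefSeq (GRCh38.p14) and hold the 250 bases upstream of the outermost annotated start, read 5′ to 3′ on the strand of the gene. Of the 10 members 7 matched the promoter table and 5 had a window at the outermost start. The window of ETV6, also not called at any time, is the one of these 5 not printed. Capitals mark CCGGAAGT, the consensus bound by most ETS factors, on either strand (ACTTCCGG where it lies on the other strand).
ETS2, chr21:38804933-38805182, plus strand: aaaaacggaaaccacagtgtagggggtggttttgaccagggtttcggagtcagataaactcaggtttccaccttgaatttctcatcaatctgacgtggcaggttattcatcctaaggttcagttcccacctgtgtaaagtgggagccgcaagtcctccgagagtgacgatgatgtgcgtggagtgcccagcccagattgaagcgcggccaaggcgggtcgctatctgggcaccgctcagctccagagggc
ELF1, chr13:41061387-41061636, minus strand: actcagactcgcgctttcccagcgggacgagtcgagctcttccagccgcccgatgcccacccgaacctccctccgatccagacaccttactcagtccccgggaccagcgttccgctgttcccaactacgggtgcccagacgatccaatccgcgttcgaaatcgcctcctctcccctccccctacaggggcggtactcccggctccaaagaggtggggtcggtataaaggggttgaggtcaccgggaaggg
ELK4, chr1:205632012-205632261, minus strand: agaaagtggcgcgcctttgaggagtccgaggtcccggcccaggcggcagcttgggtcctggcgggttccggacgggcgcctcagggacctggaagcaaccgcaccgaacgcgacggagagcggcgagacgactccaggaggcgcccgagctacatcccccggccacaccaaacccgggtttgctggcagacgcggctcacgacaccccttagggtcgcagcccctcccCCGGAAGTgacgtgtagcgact
GABPA, chr21:25734722-25734971, plus strand: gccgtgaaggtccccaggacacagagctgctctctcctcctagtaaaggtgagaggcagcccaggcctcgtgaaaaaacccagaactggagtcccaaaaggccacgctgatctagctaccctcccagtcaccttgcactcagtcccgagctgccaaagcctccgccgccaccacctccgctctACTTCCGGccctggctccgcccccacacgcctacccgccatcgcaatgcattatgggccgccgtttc
The consensus begins 22 bases upstream of the ELK4 start and 67 bases upstream of the GABPA start, on the other strand in GABPA, and 3.42% of all 35116 windows of this length hold it. The PU.1 element GAGGAAGT (2.17% of all windows, both strands searched) and the glucocorticoid receptor motif AGAACA (12.4% of all windows, both strands) are in none of the 4 windows printed. No binding was measured with these arrays, so a match is a description of the letters in the window.

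ETS2, a factor activated by MAP kinase phosphorylation, had the largest change of the 8 gene values at 8 h and at 24 h. Its probe set 201328_at read 10.64, 10.67, 10.70 and 10.69 in untreated cells, 11.52, 11.40, 11.47, 11.49 and 11.46 after 8 h, and 11.78, 11.73, 11.75, 11.87 and 12.03 after 24 h. Each group lay wholly above the one before it. The probe set 201329_s_at read 9.57, 9.57, 10.05 and 9.91 in untreated cells, 10.44, 10.35, 10.86, 10.75 and 10.59 after 8 h, and 10.79, 10.72, 11.35, 11.32 and 11.35 after 24 h. Here both arrays of the first day were the lowest of each group. The 8 h and 24 h arrays overlapped. The difference between these times (0.51, limma adjusted p = 0.0185) was no longer called without 24 h replicate 3, 4 or 5 or 8 h replicate 2 (adjusted p between 0.0521 and 0.0544) or without run 5 (adjusted p = 0.0886). As a gene value ETS2 averaged 11.03 ± 0.113 at 8 h (SD, n = 5) and 10.23 ± 0.134 in untreated cells (SD, n = 4), so that the log2 difference was 0.81 (SE 0.104, 1.75-fold, limma adjusted p = 2.09e-05). At 24 h it averaged 11.47 ± 0.204 (SD, n = 5), 1.24 above untreated cells (SE 0.104, 2.37-fold, limma adjusted p = 3.66e-08) and 0.44 above 8 h (SE 0.0982, limma adjusted p = 0.00178). It was higher in 4 of 4 runs against untreated cells at both times and in 5 of 5 runs at 24 h against 8 h. Within the first day alone the log2 fold changes were 0.82 at 8 h and 1.14 at 24 h, and within the later days 0.76 and 1.27.

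ERG, a factor needed for the upkeep of hematopoietic stem cells and altered in a subtype of acute lymphoblastic leukemia, lies next to ETS2 on chromosome 21, with 143.399 kb between the annotated genes (GRCh38.p14). Its probe set 213541_s_at read 10.41, 10.42, 10.09 and 10.34 in untreated cells, 10.55, 10.56, 10.58, 10.67 and 10.65 after 8 h, and 10.78, 10.72, 10.71, 10.87 and 10.78 after 24 h. The untreated array of run 3 was the lowest, and the 3 groups did not overlap. Its probe set 211626_x_at read 6.53, 6.53, 6.34 and 6.69 in untreated cells, 6.85, 6.76, 6.85, 6.90 and 6.94 after 8 h, and 6.98, 6.93, 6.88, 7.05 and 7.13 after 24 h. All dex arrays were above all untreated ones, while the dex times overlapped. The log2 fold changes at 8 h were 0.29 (limma adjusted p = 0.0107) for 213541_s_at and 0.34 (adjusted p = 0.00512) for 211626_x_at. At 24 h they were 0.46 (adjusted p = 8.48e-05) and 0.47 (adjusted p = 9.92e-05). The 8 h call of 213541_s_at was lost within the first day (0.14, adjusted p = 0.246).

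The remaining ERG probe set, 222079_at, read 5.75, 5.72, 6.23 and 6.41 in untreated cells, 6.01, 5.82, 6.43, 6.67 and 6.70 after 8 h, and 6.24, 6.20, 6.51, 6.79 and 6.59 after 24 h. The arrays of the first day were the lowest of each group, and all groups overlapped. It was not called at 8 h (0.30, SE 0.194, limma adjusted p = 0.371) or at 24 h (0.44, SE 0.194, adjusted p = 0.0949), although it was higher in 4 of 4 runs at both times. Without untreated replicate 4 it passed at 24 h (adjusted p = 0.0411). With the run as a block it passed at both (adjusted p = 0.0288 at 8 h and 0.000812 at 24 h). The ERG gene value averaged 7.93 ± 0.167 at 8 h (SD, n = 5) and 7.62 ± 0.127 in untreated cells (SD, n = 4), so that the log2 difference was 0.31 (SE 0.0967, limma adjusted p = 0.0216). At 24 h it averaged 8.08 ± 0.12 (SD, n = 5), 0.45 above untreated cells (limma adjusted p = 0.000632). The 8 h call was lost without 8 h replicate 4 or 5, untreated replicate 1, 2 or 3, or run 5 (limma adjusted p between 0.0550 and 0.149), and within the first day it was 0.23 (adjusted p = 0.0651). Between 24 h and 8 h ERG differed by 0.15 (adjusted p = 0.208), and by 0.15 once the run was a block (adjusted p = 0.0223).

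ETS1, a lymphoid factor that pairs with RUNX1 and PAX5 on B-cell promoters, was measured by 1 probe set, 214447_at. It read 5.47, 5.58, 5.21 and 5.46 in untreated cells, 6.08, 6.11, 5.74, 5.87 and 5.46 after 8 h, and 5.29, 5.87, 5.49, 5.40 and 5.41 after 24 h. At 8 h runs 1 to 4 were above every untreated array and run 5 was among them, and at 24 h only run 2 was above the untreated range. The gene value averaged 5.85 ± 0.267 at 8 h (SD, n = 5) and 5.43 ± 0.155 in untreated cells (SD, n = 4), so that the log2 difference was 0.42 (SE 0.138, 1.34-fold, limma adjusted p = 0.0274), higher in 4 of 4 runs. At 24 h it averaged 5.49 ± 0.224 (SD, n = 5), 0.06 above untreated cells (SE 0.138, limma adjusted p = 0.731) and 0.36 below 8 h (log2 fold change −0.36, SE 0.13, adjusted p = 0.0313), lower in 5 of 5 runs. As a probe set among all single-gene probe sets, the 8 h rise had an adjusted p of 0.0445 (lost without any of 10 of the 14 arrays, adjusted p up to 0.133) and the difference between the dex times one of 0.0507, or 0.00799 with the run as a block. The 8 h call was lost without 8 h replicate 1 or 2 or untreated replicate 1 or 3 (limma adjusted p up to 0.0914), and the call between the dex times was lost without any of 24 h replicates 1, 3, 4 and 5 and 8 h replicates 1, 2 and 5 (limma adjusted p up to 0.0838) and within the first day (−0.52, adjusted p = 0.0509).

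FLI1, the closest relative of ERG and a regulator of megakaryocytes and blood vessels, is the neighbor of ETS1 on chromosome 11, with 97.573 kb between the annotated genes. Its probe set 210786_s_at read 9.19, 9.12, 8.90 and 9.01 in untreated cells, 9.54, 9.47, 9.19, 9.40 and 9.27 after 8 h, and 9.48, 9.39, 9.36, 9.36 and 9.60 after 24 h. Run 3 was the lowest array of the untreated and of the 8 h group. All 24 h arrays were above all untreated arrays. Its probe set 204236_at read 10.97, 10.89, 10.98 and 10.90 in untreated cells, 11.03, 11.09, 11.39, 11.32 and 11.42 after 8 h, and 11.18, 11.12, 11.33, 11.35 and 11.41 after 24 h. The dex arrays of the first day were the lowest of their groups but still above all untreated arrays, so the difference was smaller within that day: 0.13 at 8 h (limma adjusted p = 0.320) and 0.22 at 24 h (adjusted p = 0.0672). Over all arrays the log2 fold changes at 8 h were 0.32 for 210786_s_at (limma adjusted p = 0.0167) and 0.31 for 204236_at (adjusted p = 0.0243), and at 24 h 0.38 (adjusted p = 0.00182) and 0.34 (adjusted p = 0.00615). The 8 h call of 204236_at was lost without 8 h replicate 3, 4 or 5, untreated replicate 2 or 4, or run 5 (limma adjusted p between 0.0570 and 0.0661), and that of 210786_s_at without untreated replicate 3 (adjusted p = 0.0612).

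The FLI1 probe set 211825_s_at read between 7.08 and 7.88 in untreated cells, between 7.36 and 8.22 after 8 h and between 7.57 and 7.88 after 24 h, and was not called (0.27 at 8 h, limma adjusted p = 0.319, and 0.24 at 24 h, adjusted p = 0.285). Within the later days it passed at 24 h (0.44, adjusted p = 0.0321). Its highest untreated and highest 8 h array were both of run 1. The FLI1 gene value averaged 9.47 ± 0.101 at 8 h (SD, n = 5) and 9.17 ± 0.149 in untreated cells (SD, n = 4), so that the log2 difference was 0.30 (SE 0.0831, limma adjusted p = 0.0108). At 24 h it averaged 9.49 ± 0.0807 (SD, n = 5), 0.32 above untreated cells (adjusted p = 0.00298). Both calls were kept with each array left out in turn, and within each set of days: the changes at 8 h and 24 h were 0.35 and 0.28 on the first day, where the gene value rested on 210786_s_at alone, and 0.36 and 0.45 on the later days. Between 24 h and 8 h FLI1 differed by 0.02 (SE 0.0784, adjusted p = 0.855).

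**Figure D2:**
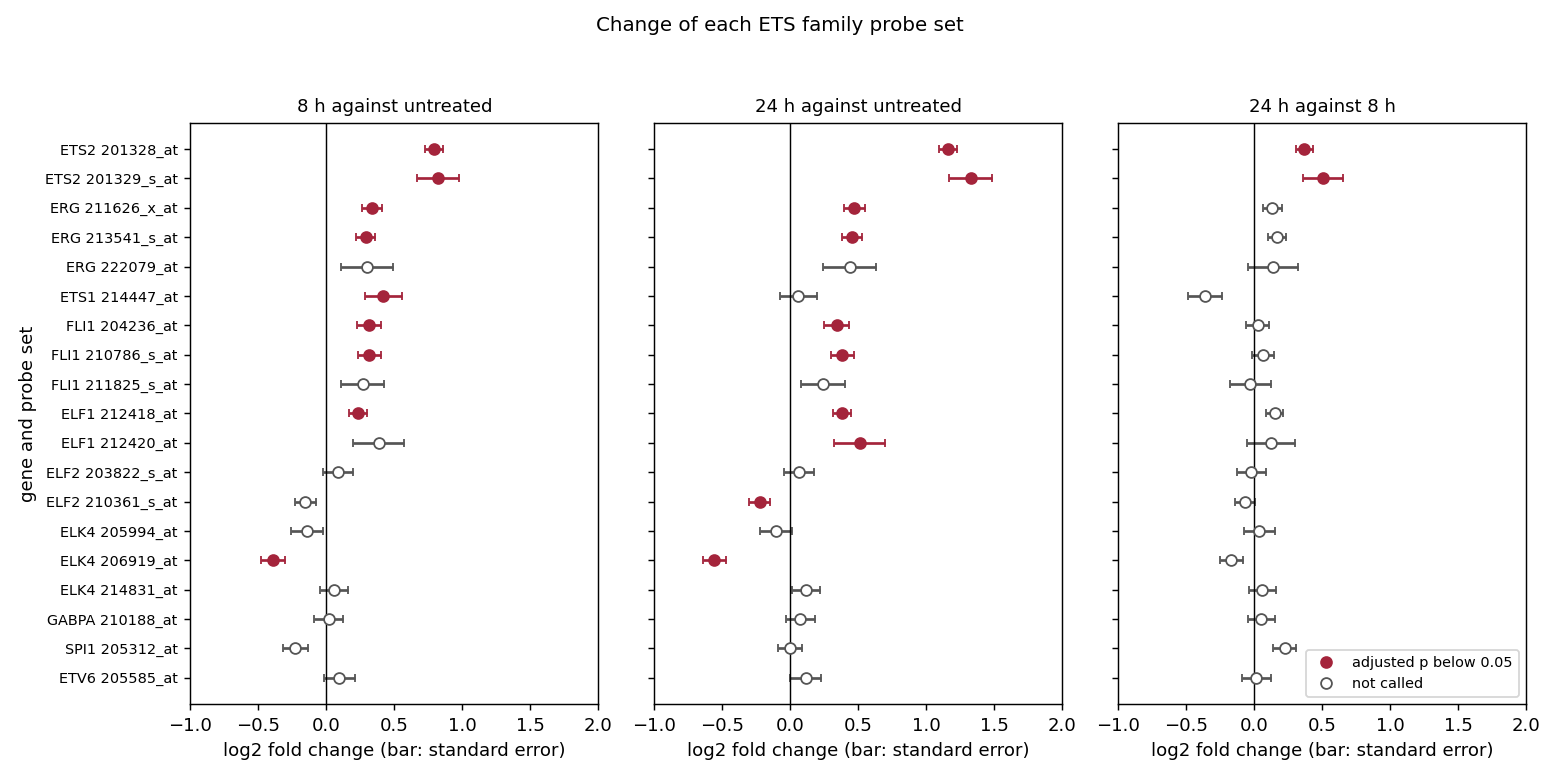
Log2 fold change of each of the 19 ETS probe sets in the 3 comparisons, with its standard error; filled points passed limma at an adjusted p below 0.05 over all single-gene probe sets. At 8 h 9 points are filled and at 24 h 10, and at 24 h against 8 h only the ETS2 probe sets are (2 points).

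ELF1 is a widely expressed activator of lymphoid genes that the retinoblastoma protein binds, and both of its probe sets had positive changes. Its probe set 212418_at read 12.48, 12.41, 12.40 and 12.35 in untreated cells, 12.55, 12.63, 12.77, 12.56 and 12.70 after 8 h, and 12.77, 12.66, 12.84, 12.81 and 12.88 after 24 h. All dex arrays lay above all untreated arrays, and the dex times overlapped. The log2 fold change of 212418_at was 0.23 at 8 h (SE 0.0668, limma adjusted p = 0.0244) and 0.38 at 24 h (adjusted p = 0.00021). The 8 h call of 212418_at was lost without 8 h replicate 3 or 4, untreated replicate 2, 3 or 4, or run 5 (limma adjusted p between 0.0539 and 0.0679), and within the first day (0.14, adjusted p = 0.304). The probe set 212420_at read 11.15, 11.14, 11.80 and 11.87 in untreated cells, 11.65, 11.51, 11.93, 12.25 and 12.02 after 8 h, and 11.72, 11.74, 12.32, 12.24 and 11.97 after 24 h. Both first-day arrays were the lowest of each group and the groups overlapped, but dex arrays were above the untreated array of their run in 4 of 4 runs at both times. It was not called at 8 h (0.38, SE 0.187, adjusted p = 0.203) and was called at 24 h (0.51, adjusted p = 0.0423), a call lost without 24 h replicate 3, 4 or 5, 8 h replicate 3, untreated replicate 1 or 2, or run 5 (adjusted p between 0.0514 and 0.148). With the run as a block it passed at 8 h too (0.37 with an adjusted p of 0.00315).

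As a gene value ELF1 averaged 12.26 ± 0.159 at 8 h (SD, n = 5) and 11.95 ± 0.178 in untreated cells (SD, n = 4), so that the log2 difference was 0.31 (SE 0.109, 1.24-fold, limma adjusted p = 0.039). At 24 h it averaged 12.40 ± 0.167 (SD, n = 5), 0.45 above untreated cells (SE 0.109, 1.36-fold, adjusted p = 0.00196), and 0.14 above 8 h (adjusted p = 0.299, or 0.0188 with the run as a block). The 8 h call was lost without 8 h replicate 3, 4 or 5, untreated replicate 1 or 2, or run 5 (limma adjusted p between 0.0835 and 0.135). Within the first day, on the probe set 212420_at alone, it was 0.44 (adjusted p = 0.00719) and within the later days 0.27 (adjusted p = 0.0199).

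ELF2, a relative of ELF1 that also binds RUNX1, had probe sets that differed in direction. The probe set 210361_s_at read 8.87, 8.90, 8.85 and 8.56 in untreated cells, 8.59, 8.66, 8.59, 8.75 and 8.62 after 8 h, and 8.56, 8.68, 8.64, 8.54 and 8.44 after 24 h. Of the untreated arrays the one of run 4 was far below the others, below all 8 h arrays and inside the 24 h range. The log2 fold change was −0.22 at 24 h (SE 0.0781, limma adjusted p = 0.0333), lower in 4 of 4 runs, and −0.16 at 8 h (adjusted p = 0.218). The 24 h call was lost within the later days (−0.17, adjusted p = 0.244), without run 5 (−0.19, adjusted p = 0.0994), and without 24 h replicate 1, 4 or 5 or untreated replicate 1, 2 or 3 (adjusted p between 0.0575 and 0.106). Without untreated replicate 4, the low array, the 8 h difference passed (adjusted p = 0.036). The other ELF2 probe set, 203822_s_at, which alone passed the variance filter, read between 9.53 and 9.85 in untreated cells, between 9.47 and 9.98 after 8 h and between 9.50 and 9.92 after 24 h. Its groups overlapped throughout, and as the gene value of ELF2 it differed by 0.09 at 8 h (SE 0.115, limma adjusted p = 0.616) and by 0.06 at 24 h (adjusted p = 0.652).

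ELK4 belongs to the ternary complex factors, which join the serum response factor SRF on promoters of immediate early genes, and its 3 probe sets did not move together. The probe set 206919_at, the only one in the gene value, read 4.62, 4.41, 4.69 and 4.55 in untreated cells, 4.29, 4.31, 4.07, 4.05 and 4.15 after 8 h, and 4.23, 3.93, 3.95, 3.89 and 4.04 after 24 h. All dex arrays were below all untreated arrays. As a gene value ELK4 fell by 0.39 at 8 h (log2 fold change −0.39, SE 0.0902, limma adjusted p = 0.00315) and by 0.56 at 24 h (−0.56, SE 0.0902, adjusted p = 5.18e-05), and was lower in 4 of 4 runs at both times. Its mean over all arrays was 4.23, close to the 0.25 quantile of that mean over all single-gene probe sets (4.25), and its highest group mean, in untreated cells, was 4.57.

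The probe set 205994_at of ELK4 read between 4.20 and 4.41 in untreated cells, between 3.76 and 4.44 after 8 h and between 3.92 and 4.44 after 24 h (−0.14 at 8 h, limma adjusted p = 0.522, and −0.10 at 24 h, adjusted p = 0.571). The probe set 214831_at read between 4.63 and 5.17 in untreated cells, between 4.78 and 5.16 after 8 h and between 5.0 and 5.23 after 24 h (0.06, adjusted p = 0.812, and 0.12, adjusted p = 0.445). Neither passed the variance filter, and the groups of both overlapped. With all 3 probe sets averaged, ELK4 differed by −0.16 at 8 h and was not called (limma adjusted p = 0.132). At 24 h it was still called lower on that average. Within the first day, where the filter applied to those arrays alone set the gene value, ELK4 differed by −0.13 at 8 h (adjusted p = 0.311) and −0.05 at 24 h (adjusted p = 0.628). On the probe set 206919_at alone the first day gave −0.21 at 8 h (adjusted p = 0.299, against 0.00427 over all arrays). The 24 h call of 206919_at was kept within the first day.

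GABPA, the DNA-binding subunit of GABP (nuclear respiratory factor 2) and a regulator of mitochondrial genes, was not called in any comparison. Its probe set 210188_at read 7.05, 7.25, 7.38 and 7.22 in untreated cells, 7.38, 6.97, 7.36, 7.35 and 7.16 after 8 h, and 7.15, 7.11, 7.42, 7.53 and 7.27 after 24 h. The groups overlapped. The highest array was that of run 4 at 24 h. The log2 fold changes were 0.02 at 8 h (SE 0.106, limma adjusted p = 0.946) and 0.07 at 24 h (SE 0.106, adjusted p = 0.666).

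SPI1 encodes PU.1, a pioneer factor of the myeloid and early B lineages whose dose decides between them. Its probe set 205312_at read 4.56, 4.30, 4.63 and 4.42 in untreated cells, 4.27, 4.37, 4.21, 4.0 and 4.42 after 8 h, and 4.52, 4.56, 4.35, 4.41 and 4.54 after 24 h. The groups overlapped. The lowest array was that of run 4 at 8 h. Its mean over all arrays was 4.40, a little above the 0.25 quantile of all single-gene probe sets (4.25). It was not called at 8 h against untreated cells (−0.23, SE 0.0909, limma adjusted p = 0.109) or at 24 h against 8 h (0.22, SE 0.0857, adjusted p = 0.0691, higher in 5 of 5 runs), and both passed under the run block (−0.25, adjusted p = 0.0455, and 0.22, adjusted p = 0.0416). The difference between the dex times also passed without 8 h replicate 4 (adjusted p = 0.0417).

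ETV6 (TEL), the repressor fused to RUNX1 in childhood leukemia, was measured by 1 probe set, 205585_at. It read 5.03, 5.31, 5.32 and 5.18 in untreated cells, 5.37, 5.53, 5.24, 5.27 and 5.13 after 8 h, and 5.16, 5.42, 5.02, 5.45 and 5.56 after 24 h. The groups overlapped, with the highest array in run 5 at 24 h and the lowest in run 3 at 24 h. The log2 fold changes of the gene value were 0.10 at 8 h (SE 0.114, limma adjusted p = 0.565) and 0.11 at 24 h (SE 0.114, adjusted p = 0.413).

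Of the 8 gene values, 2 had no overlap between dex and untreated arrays at 8 h (ETS2 and ELK4, beside 28.7% of all genes), 5 had none at 24 h (54.7%), and 1, ETS2, had none between 24 h and 8 h (36.1%). Counted in the same way, 7 of the 19 probe sets of the ETS genes separated dex from untreated cells at 8 h (16.4% of all single-gene probe sets did) and 8 of 19 at 24 h (32.4%), and 2 of 19 separated 24 h from 8 h (20.3%). The 8 at 24 h were the ETS2 pair, the ERG pair 211626_x_at and 213541_s_at, the FLI1 pair 204236_at and 210786_s_at, ELF1 212418_at and ELK4 206919_at. The FLI1 probe set 210786_s_at is the one of these that overlapped at 8 h. With the run as a block, 4 gene values were called at 24 h against 8 h, against 2 without it (ERG and ELF1 were added to ETS2 and ETS1), and 5 of the 19 probe sets, against 2 without it. Under that block 59.8% of all genes and 33.7% of all single-gene probe sets were called in this comparison.

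Among 18 other genes of the family, 16 had a probe set and 12 a gene value. At 8 h 1 was higher (ELK3) and 1 lower (ETV5), at 24 h 3 were higher (ELK3, ELF4, ETV2) and 1 lower (ETV5), and at 24 h against 8 h 3 were higher and 0 lower (ELK3, ETV2, ELF4), beside 34.5%, 63.4% and 47.9% of all genes called in either direction. The medians of the 12 log2 fold changes were −0.02 at 8 h and −0.02 at 24 h. ELK3, a ternary complex factor like ELK4 that represses its targets until phosphorylated, had probe sets that differed in size of change. Its probe set 221773_at read 7.30, 7.25, 7.59 and 7.58 in untreated cells, 8.26, 7.99, 8.89, 8.72 and 8.65 after 8 h, and 9.40, 9.34, 9.47, 9.63 and 9.66 after 24 h. The 3 groups did not overlap, and within each group the first-day arrays were the lowest. It was 1.07 higher at 8 h (SE 0.152, 2.10-fold, limma adjusted p = 9.25e-05) and 2.07 higher at 24 h (SE 0.152, 4.19-fold, adjusted p = 1.54e-08). Its dimmer probe set 206127_at read between 3.75 and 3.99 in untreated cells, between 3.70 and 3.89 after 8 h and between 3.84 and 4.35 after 24 h, with changes of −0.06 (adjusted p = 0.771) and 0.23 (adjusted p = 0.0545).

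ETV5, an activator that is induced by receptor tyrosine kinase signaling through MAP kinase, had lower values in all 3 of its probe sets at both times. Its probe set 203349_s_at read 8.00, 8.12, 8.03 and 8.05 in untreated cells, 5.78, 5.90, 6.59, 7.15 and 7.57 after 8 h, and 6.65, 6.78, 6.74, 7.17 and 7.34 after 24 h. No dex array reached the untreated range, and the 8 h arrays spread more than those of the other groups, with the first day lowest and run 5 highest. The changes of this probe set were −1.45 at 8 h (SE 0.287, limma adjusted p = 0.00187) and −1.11 at 24 h (SE 0.287, adjusted p = 0.00526). ELF4, a factor of lymphocyte quiescence and NK cell development, was not called at 8 h on the probe set 31845_at (0.02, SE 0.115, adjusted p = 0.947). At 24 h 31845_at read 8.78, 8.93, 9.21, 9.32 and 9.28, against 8.56, 8.58, 8.95 and 8.80 in untreated cells. The ranges overlapped, and each dex array was above the untreated array of its run in 4 of 4 runs (0.38, adjusted p = 0.015). ETV2, a master factor of blood vessel and blood progenitors, averaged 4.67 at 24 h and 4.46 in untreated cells (0.22, adjusted p = 0.0363), a call lost under the run block (adjusted p = 0.0513) and without 24 h replicate 1 or 5 or untreated replicate 1 or 3 (adjusted p up to 0.0956).

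**Figure D3:**
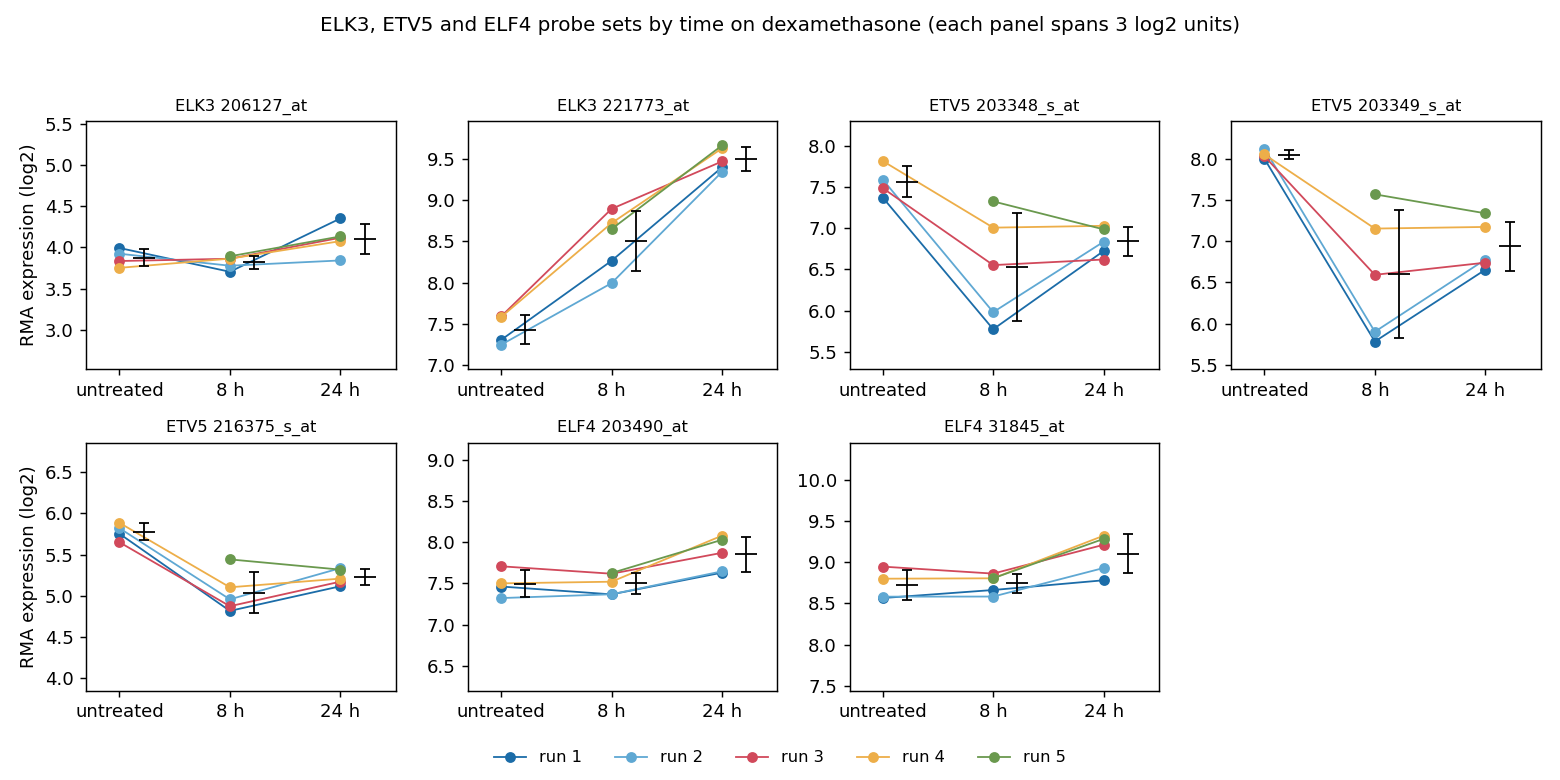
Expression (log2, RMA) of each probe set of ELK3, ETV5 and ELF4 on each array against time on dex; points are arrays, lines join arrays of a run, and black bars are the group mean ± SD. The ELK3 probe set 221773_at lies between 7.25 and 7.59 in untreated cells and between 9.34 and 9.66 at 24 h, and the 8 h arrays of ETV5 203349_s_at spread between 5.78 and 7.57.

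Of 25 partners and cofactors of ETS factors, 13 had a gene value. At 8 h 2 were higher and 1 lower, with 5 higher and 1 lower when the run was a block, and at 24 h 6 were higher and 3 lower. Of all genes 34.5% were called at 8 h, 46.4% at 8 h with that block, and 63.4% at 24 h. The 9 of 13 called at 24 h were near the share of all genes. LMO2, the bridging protein of the stem cell factor complex that holds ERG and FLI1 targets, averaged 11.09 at 8 h and 10.06 in untreated cells (1.03, SE 0.0899, limma adjusted p = 2.9e-07), and 11.56 at 24 h (1.50 above untreated cells, adjusted p = 7.62e-10). The acetyltransferases EP300 and CREBBP, coactivators of ETS1 and ETS2, were 0.68 (adjusted p = 5.08e-05) and 0.40 (adjusted p = 0.000252) higher at 24 h. LYL1, a partner of LMO2, was lower at 24 h (−0.36, adjusted p = 0.00194). CBFB, which stabilizes RUNX factors on DNA, was lower at 24 h than at 8 h (−0.32, adjusted p = 0.00456). JUN, which binds beside ETS factors as part of AP-1, was higher at 8 h (0.42, adjusted p = 0.024), a call lost without untreated replicate 1 or 2 (adjusted p = 0.0704 and 0.0728) and within the later days (adjusted p = 0.121).

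Of 13 kinases and ligases that act on ETS proteins, 4 had a gene value, of which 1 was higher and 0 lower in each comparison (15.9%, 30.7% and 24.3% of all genes were higher at 8 h, at 24 h and at 24 h against 8 h). MAP2K1 (MEK1), the kinase above the ERK kinases that phosphorylate ETS2 and the ternary complex factors, averaged 10.34 at 8 h and 9.75 in untreated cells (0.59, SE 0.0779, limma adjusted p = 2.47e-05), and 10.69 at 24 h (0.94 above untreated cells, adjusted p = 3.38e-08). Of 12 targets of SRF and ternary complex factors, 6 had a gene value, and 0 were higher and 1 lower at 8 h and at 24 h (18.6% and 32.8% of all genes were lower). With the run as a block 0 were higher and 3 lower at 8 h, and 0 were higher and 2 lower at 24 h. Under that block 46.4% of all genes at 8 h and 71% at 24 h were called in either direction. The immediate early gene IER2 averaged 8.72 at 8 h and 9.95 in untreated cells (−1.23, adjusted p = 9.46e-07), and 8.61 at 24 h (−1.34, adjusted p = 8e-08).

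Of 20 genes known as targets of PU.1, 9 had a gene value. This list, like the others here, was written with earlier results of these data known, so its counts are only a description. At 8 h 2 were higher and 1 lower, at 24 h 7 were higher and 1 lower, and at 24 h against 8 h 7 were higher and 0 lower. Of all genes 15.9% were higher and 18.6% lower at 8 h, 30.7% and 32.8% at 24 h, and 24.3% and 23.6% at 24 h against 8 h. Their median log2 fold change was 0.05 at 8 h and 0.44 at 24 h, against −0.03 and −0.04 over all genes. FLT3, a cytokine receptor of early progenitors, was 0.58 higher at 8 h (limma adjusted p = 0.000498; within the first day 0.37, adjusted p = 0.0147) and 0.98 higher at 24 h (adjusted p = 6.64e-07). The B-cell receptor chains CD79B and CD79A were 0.98 (adjusted p = 3.85e-07) and 0.56 (adjusted p = 0.000249) higher at 24 h, and IL7R, the receptor chain of interleukin 7, was 0.56 higher (adjusted p = 1.16e-05). The myeloid integrin ITGAM averaged 5.21 at 24 h and 4.67 at 8 h (0.54, adjusted p = 0.00019). BTK, the kinase of B-cell receptor signaling, was lower at 8 h (−0.51, adjusted p = 0.000414). SPI1 itself was at a mean of 4.48 in untreated cells, 4.25 at 8 h and 4.48 at 24 h. From 8 h to 24 h SPI1 thus differed by 0.22 and was higher in 5 of 5 runs. This difference was not called (limma adjusted p = 0.0691) but passed under the run block (limma adjusted p = 0.0416). The SPI1 signal is near that of dim probe sets, which limits what these means can show. A link between SPI1 and the listed genes was not tested.

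Of 12 genes known as targets of GABP, 7 had a gene value, with 0 higher and 2 lower at 8 h, 0 higher and 6 lower at 24 h, and 0 higher and 6 lower at 24 h against 8 h, beside 18.6%, 32.8% and 23.6% of all genes called lower. Their median log2 fold change was −0.12 at 8 h and −0.39 at 24 h, against −0.03 and −0.04 over all genes. TFAM, which packs and transcribes mitochondrial DNA, averaged 9.87 at 8 h and 10.27 in untreated cells (−0.40, SE 0.105, limma adjusted p = 0.0072), and 9.26 at 24 h (−1.01, adjusted p = 4.32e-07). The 8 h difference was −0.24 within the first day (adjusted p = 0.0485). TFB2M, a mitochondrial transcription factor, was lower at 8 h (−0.32, adjusted p = 0.0028) and at 24 h (−0.50, adjusted p = 1.69e-05). At 24 h the mitochondrial RNA polymerase POLRMT (−0.48, adjusted p = 0.0005) and the cytochrome oxidase subunit COX5B (−0.39, adjusted p = 0.000937) were lower too. The COX5B difference was −0.24 without 24 h replicate 3 (adjusted p = 0.0346), −0.24 without 24 h replicate 4 (adjusted p = 0.0371), and within the first day −0.24 and not called (adjusted p = 0.078). TFB1M, a mitochondrial rRNA methyltransferase, was lower at 24 h than at 8 h (−0.27, adjusted p = 0.0204), a call lost within the first day (adjusted p = 0.180), without run 5 (adjusted p = 0.0886) and without 24 h replicate 4 (adjusted p = 0.0613). At 24 h against 8 h COX5B differed by −0.28 (adjusted p = 0.0118), and by −0.08 without 24 h replicate 3 (adjusted p = 0.535) and −0.07 without 24 h replicate 4 (adjusted p = 0.560). GABPA differed by 0.02 and 0.07 at 8 h and 24 h, as given above. A link between GABPA and the listed genes was not tested.

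**Figure D4:**
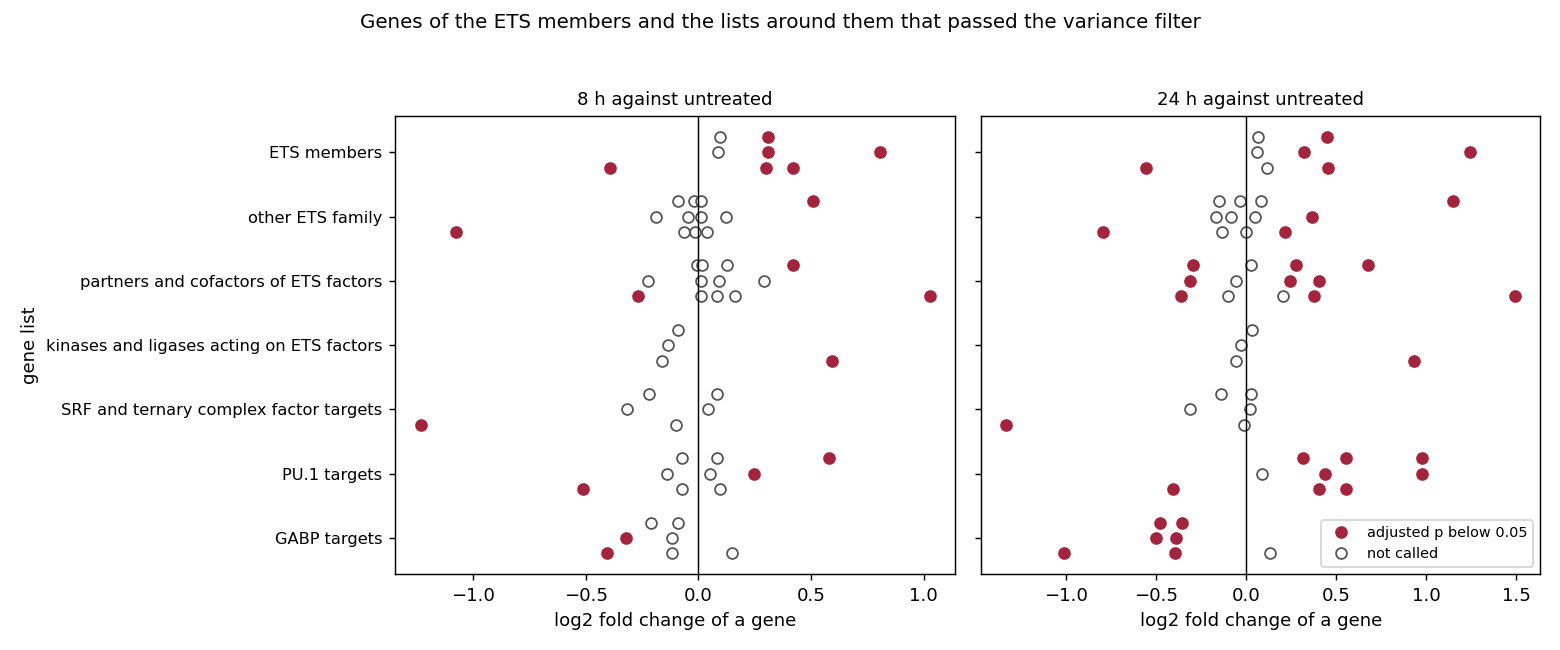
Log2 fold change at 8 h and at 24 h against untreated cells of each gene that passed the variance filter, for the ETS members and the 6 lists around them (rows; points are spread vertically only to be seen apart); filled points passed limma at an adjusted p below 0.05. At 24 h 7 of 9 PU.1 targets are filled to the right of 0 and 6 of 7 GABP targets are filled to its left. The lists were written with earlier results of these data known.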

How the data were processed

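Expression was measured in RS4;11 cells with 14 arrays (4 untreated, 5 after 8 h and 5 after 24 h of dex). The authors ran RMA (background correction, quantile normalization, probe set summary) from affy, whose version is not stated. They dropped 1 untreated array after quality control, and deposited log2 values for 22277 probe sets. The labels name the Affymetrix protocol, whereas the methods name another maker for the same array type. Quantile normalization gives all arrays nearly the same distribution, so changes are relative to the other genes. Array signals have no molecule count behind them, and the number of arrays limits the precision.

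Probe sets were named through GEO's platform annotation: 19070 had 1 gene, 1043 several and 2164 none; 19058 were matched to a current gene record and 0 symbols changed. Probe sets with 1 gene and an interquartile range above its 0.5 quantile (9535) were averaged per gene (6763 genes), after the authors' variance filter. limma 3.58.1 (R 4.3.3) was fitted over all 14 arrays without a block, with Benjamini-Hochberg adjustment over all genes of a comparison and calls at 0.05. A second fit used all 19070 probe sets without the filter.

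The labels give a date and a letter for each array, read here as day and run; whether the date is of culture, extraction or scan is not stated. Arrays of the same run deviated together from their group means (r between 0.376 and 0.640 in 13 pairs, against 0.280 in the 2 pairs that share only a title number and −0.571 to 0.464 in 46 pairs of other days). The 6 pairs of runs 1 and 2, which share a day, lay between 0.403 and 0.600. The other runs each had a day to themselves, so the check does not separate run from day. Runs were taken to pair the arrays, and the fit with the run as a block is given where it changes a call. Within days the filter was applied anew, and ELF2 (first day) and ETV6, ETS1, ELF2 and ELK4 (later days) then had no gene value, and other gene values could rest on fewer probe sets.

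The members and lists were chosen with earlier results of these data known. Named are every member with all its probe sets, up to 4 called genes of a list and comparison with the smallest adjusted p, and for each member the 3 genes most like it over the arrays. Promoters are from RefSeq (GRCh38.p14). Alternatives were other filters, scalings, probe set choices, blocks, weights and moderation, days, runs and each array left out.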

Additional observations from a re-analysis of the deposited data

Results flagged for a closer look

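Within groups of 4 or 5 arrays, 3 of 81 groups of the 10 genes held an array far from the others by Dixon's test, which chance gives in about 1 in 20 groups. The 81 groups are not independent, since each gene value is a probe set or a mean of probe sets also counted. The ELF2 probe set 210361_s_at read 8.56 on the untreated array of run 4, where the nearest untreated array read 8.85 and the highest 8.90. The FLI1 gene value was 9.63 on the 24 h array of run 5, where the nearest 24 h array read 9.48 and the lowest 9.43. The ERG gene value was 7.81 on the untreated array of run 4, where the nearest untreated array read 7.57 and the lowest 7.55.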

How the results depend on the processing

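Of 3532 single values recomputed under the alternatives, 3271 kept their direction and their side of the threshold, 131 lost a call, 55 gained one and 75 turned sign, none of those 75 called before or after (values between −0.16 and 0.12). ETS2, FLI1 and ELK4 gene values kept their 8 h and 24 h calls with each array left out in turn. The signal of SPI1 and of 2 ELK4 probe sets is near that of dim probe sets, which limits what their values can show; the cause of each change below was not tested unless fewer arrays or genes account for it by construction.

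The count of called ETS gene values was between 3 and 6 at 8 h, 5 throughout at 24 h and between 1 and 3 at 24 h against 8 h with each array left out in turn, and the counts of probe sets were between 6 and 9, between 8 and 11 and between 1 and 4; the 8 h count of 3 is without untreated replicate 1. With the variance filter at 0.75, which leaves 4 of the genes, 2 were called at 8 h and 2 at 24 h, beside 51.1% and 80.5% of all genes. At 24 h against 8 h the replicate block gave 4 genes and 5 probe sets with the run, 4 and 5 with the title number, and 6 probe sets with the run as a random block. Day as a term gave 4 and 5, and 1 gene was called within the first day and 1 within the later days. Of all genes 59.8% (run), 59.2% (title number) and 60.1% (day) were called, with 49.9% within the first day and 53.5% within the later days. For all single-gene probe sets the shares were 33.7% (run), 33.1% (title number), 32% (random block) and 33.8% (day). Within the first day 5 probe sets were called at 8 h, beside 16.9% of all single-gene probe sets. The run block changed no member's call other than those given beside the results and that of ERG 213541_s_at at 24 h against 8 h (adjusted p = 0.0493), and of the other named genes it changed only that of ETV2 at 24 h.

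Calls of gene values lost under single alternatives, beyond those given above, were these (limma adjusted p in brackets). At 8 h ELF1 and ERG were lost with arrays shifted to 1 median (0.0516 and 0.0654) or the filter at 0.75 (0.115 and 0.236). ERG was lost at 24 h with that filter (0.0593). Further 8 h losses were ELF1 with only the arrays compared (0.0510) and ETS1 with array weights (0.0746). ELK4 at 8 h was lost with the filter on dim probe sets (0.112). ELF2 was called at 8 h with array weights (0.24, 0.0262). ELK4 was called at 24 h against 8 h with the run as a random block (0.0484) and without 24 h replicate 1 (0.0396). The probe set ETS1 214447_at lost its 8 h call with shifted arrays (0.0655), array weights (0.102) or only the arrays compared (0.0538). It also lost that call within the first day (0.0689) and the later days (0.0703). At 24 h ELF1 212420_at was lost with shifted arrays (0.0612), and ELF2 210361_s_at with only the arrays compared (0.0626). Gained probe set calls are not all listed.

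Log2 fold changes that turned sign were these. ELF2 was −0.035 at 8 h and −0.080 at 24 h without the variance filter or with that on dim probe sets. With cyclic loess SPI1 was 0.0075 at 24 h, and ETV6 205585_at was −0.0012 at 24 h against 8 h. With arrays shifted to 1 median ETV6 was −0.0098 and FLI1 −0.0041 at 24 h against 8 h, and GABPA −0.0026 at 8 h. With the title number as a replicate block GABPA was −0.023 at 8 h and SPI1 0.037 at 24 h. With array weights ETS1 was −0.033 at 24 h, and at 24 h against 8 h FLI1 204236_at was −0.026, FLI1 211825_s_at 0.054 and ELK4 205994_at −0.063. Without run 5, at 24 h against 8 h, FLI1 was −0.018, FLI1 210786_s_at −7.4e-05 and ETV6 205585_at −0.088.

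Within the first day, at 24 h against 8 h, ELK4 was 0.071, ETV6 −0.16, FLI1 −0.068, ELF2 203822_s_at 0.0026 and GABPA −0.044; at 24 h SPI1 was 0.11, ELK4 205994_at 0.021, GABPA −0.023 and ELF2 203822_s_at −0.00047, and that ELF2 probe set was −0.0031 at 8 h. Within the later days ETV6 205585_at was −0.037, GABPA −0.0064 and ELK4 214831_at −0.069 at 8 h, ELK4 214831_at −0.031 at 24 h, and, at 24 h against 8 h, FLI1 204236_at −0.013, FLI1 211825_s_at 0.12 and ELK4 205994_at −0.16.

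With each array left out in turn, values at 24 h against 8 h lay between −0.092 and 0.036 for ELF2, −0.043 and 0.092 for ETV6 205585_at, −0.056 and 0.11 for ELK4 205994_at, −0.016 and 0.055 for FLI1, −0.027 and 0.071 for FLI1 204236_at, −0.13 and 0.085 for FLI1 211825_s_at and −0.015 and 0.10 for GABPA. At 24 h they lay between −0.036 and 0.11 for ETS1 and −0.061 and 0.048 for SPI1, and at 8 h between −0.039 and 0.088 for GABPA and −0.055 and 0.12 for ELK4 214831_at.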

Other observations

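The genes whose values ran most like those of each member over the 14 arrays are given with Pearson's r as a description. The arrays share the dex groups and the days, which enter every r. ETS2 ran with CPQ (r = 0.993), a plasma carboxypeptidase, ULK1 (0.992), the kinase that starts autophagy, and TIPARP (0.992), an ADP-ribosyltransferase. ERG ran with ZFAND5 (0.981), RETREG1 (0.970), a receptor for autophagy of the endoplasmic reticulum, and CD93 (0.957), a surface protein of progenitors and endothelium. ELF1 ran with the kinase NLK (0.984), the nuclear pore protein RANBP2 (0.983) and MORC2 (0.977).

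ELF2 ran with SP140L (0.938), TXNL4A (0.932) and TRIM44 (0.927), and ELK4 with the phosphatase PTP4A1 (0.946), PNO1 (0.933), a factor of ribosome assembly, and B4GALT5 (0.932). FLI1 had lower values of r, with CLNS1A (0.914), GAB1 (0.885) and HLA-F (0.872), as did ETS1, with the phosphatase PTPRO (0.878), the metallothionein MT1E (0.841) and NUDT1 (0.820). ETV6 had the lowest, with SHCBP1L (0.766), SLC6A2 (0.654) and CYP2A13 (0.654).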
